A study of Saccharomyces cerevisiae with 4 samples.

Results

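The 38 genes described here encode the nuclear parts of oxidative phosphorylation in budding yeast, Saccharomyces cerevisiae. They were chosen by name and function out of 5656 genes on the arrays. The list holds 3 NADH dehydrogenase genes, 4 genes of complex II, 9 of complex III, 2 of cytochrome c, 9 of complex IV and 11 of ATP synthase. All 38 were matched to a probe set annotated to that gene alone. Strictly, the dehydrogenases and cytochrome c are single proteins between the complexes and not subunits of one. The data are 4 Affymetrix expression arrays of total RNA: 2 strains, nab3-11 and wild type, were each measured after 37 °C and after 25 °C, with 1 array per combination. The nab3-11 strain (1099) carries a temperature-sensitive allele of NAB3, whose protein works with Nrd1 to end short non-coding transcripts, and 37 °C is its non-permissive temperature. The reference strain (1415) is labelled only as wild type, and the labels do not say whether the strains share one background. All cultures grew in YPD, a rich medium with glucose, and were held for 2 hours at the stated temperature. The study's title names its question, how expression changes when Nab3 does not function.

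Oxidative phosphorylation passes electrons from NADH and succinate through ubiquinone, complex III and cytochrome c to complex IV, which reduces oxygen, and ATP synthase uses the proton gradient that results. Budding yeast has no proton-pumping complex I and uses single-protein NADH dehydrogenases on both faces of the inner membrane. A few core subunits are made inside the mitochondrion, whereas the genes considered here are transcribed in the nucleus, many of them under the activator Hap2/3/4/5 and under repression by glucose.

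Each group is 1 array, so differences compare single arrays and carry no error or p-value; the small number of arrays limits their precision. Signals below a floor of 21.8 units were treated as unmeasured, and a fold against such a signal is a lower bound, written "at least". A gene was called higher or lower at 2-fold, a log2 difference of 1. On an array, the floor was passed by 56.5% to 64.4% of the probe sets for genes. The labels conflict on one point: both arrays titled wild type carry a description of the mutant at 25 °C, while their titles and their strain and temperature entries say wild type, once at each temperature, and the titles were followed. NAB3 itself, whose allele need not alter its message, had 81.0 and 72.1 in nab3-11 at 37 °C and 25 °C, against 66.7 and 66.2 in wild type. NRD1, the gene of its partner protein, had 716 and 291 in nab3-11, against 88.8 and 125 in wild type, so both nab3-11 arrays were higher. The heat-induced gene HSP12 had a signal of 2747 on the array labelled wild type 37 °C and of 43.3 on the one labelled wild type 25 °C. For a URA3 control probe set the signals were 74.4 and 76.0 with nab3-11 and 165 and 168 with wild type, the 37 °C value first in each pair. Only the comparison of nab3-11 at 37 °C with nab3-11 at 25 °C is free of the arrays in question. One array stood apart by a 25S rRNA control, at 646 in nab3-11 at 37 °C against 100.3 in wild type at 37 °C, and the part of this in the values below was not tested.

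Most of the genes had similar signals on all arrays. Of the 38, 35 lay above the floor on every array. With low signals raised to the floor, 18 genes spanned less than 1.5-fold from their lowest to their highest array and 35 less than 2-fold. These counts were not taken over all genes, so they do not show whether the 38 were steadier than other genes. The 3 genes that passed 2-fold in any comparison were CYC7, COX5B and RIP1. CYC7 and COX5B encode the minor, low-oxygen forms of cytochrome c and of the Cox5 subunit, and RIP1 the Rieske iron-sulfur protein of complex III.

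**Figure D1:**
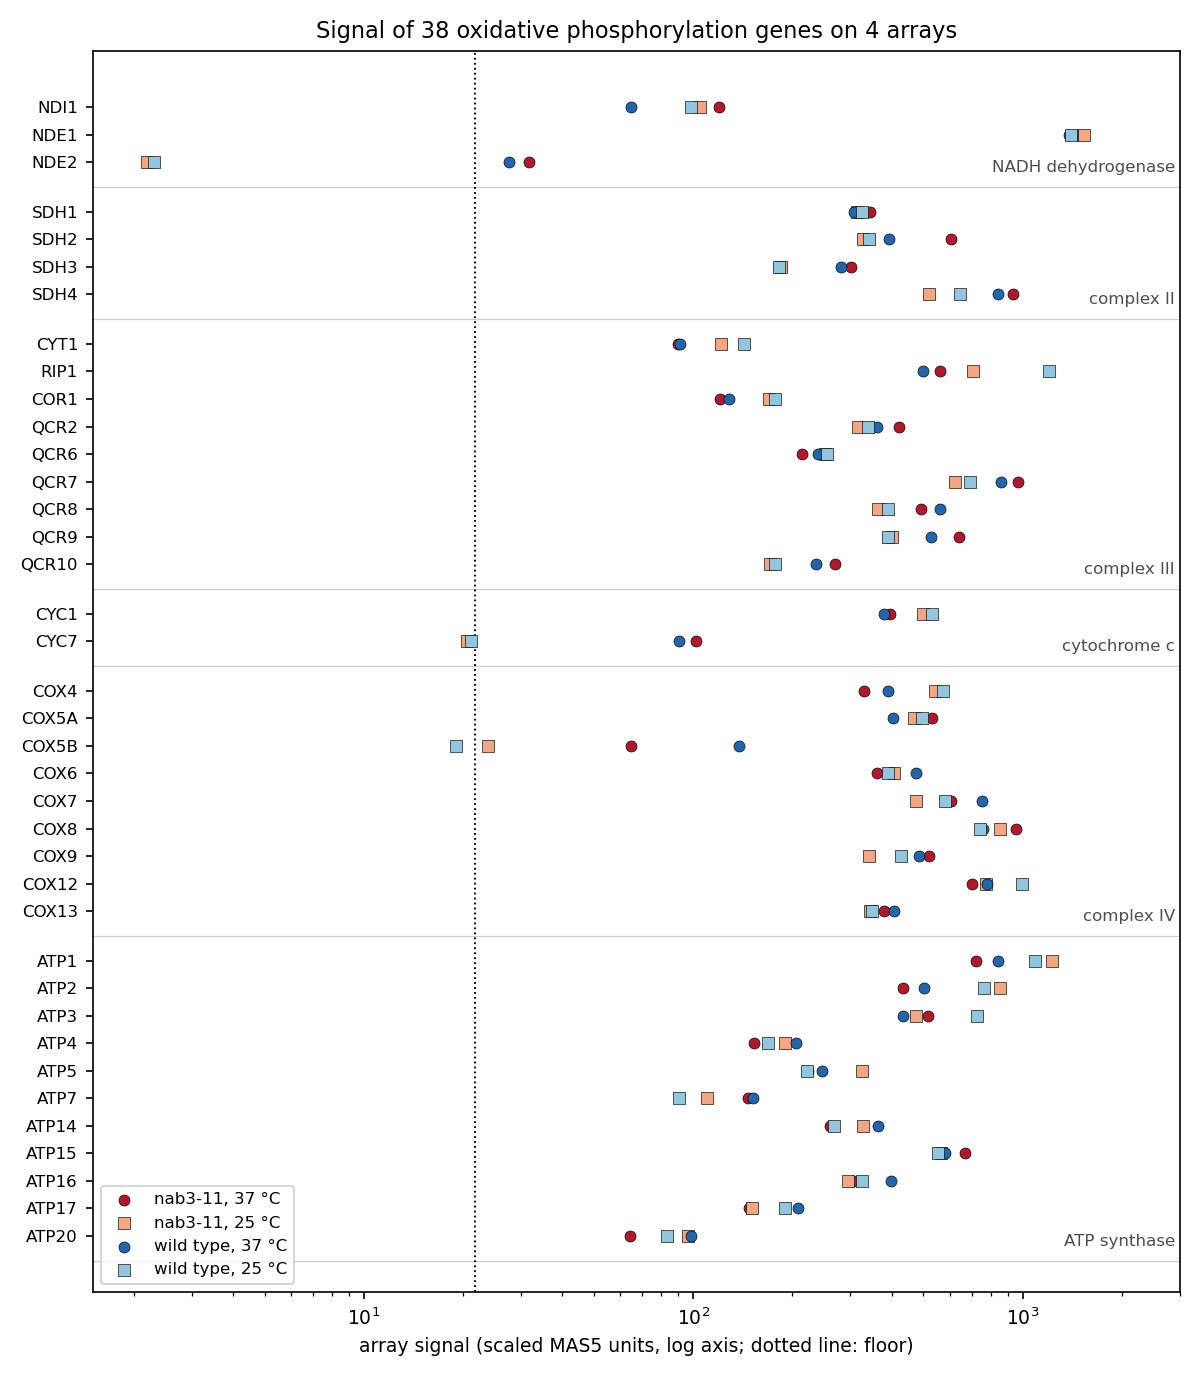
Array signal of each of the 38 genes (rows, grouped by complex) on the 4 arrays, on a log axis, with 1 point per array and the floor of 21.8 as a dotted line. Most genes form tight clusters well above the floor, while NDE2 and CYC7 sit below it at 25 °C and above it at 37 °C, as does COX5B except for its 23.9 in nab3-11 at 25 °C.

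Set against wild type at the restrictive 37 °C, nab3-11 differed little in these genes. COX5B was the 1 gene of 38 called lower and 0 were called higher, where 3.94% of the 4770 measured genes were called lower and 4.78% higher. At 1.5-fold, 2 were lower and 2 higher, against 14% and 11.8% of all genes. The higher ones were NDI1 and SDH2, and the lower ones COX5B and ATP20. The median log2 difference of the 38 was 0.02, and that of all measured genes -0.05. Differences between the complexes were small and ran in opposite directions: the medians were 0.16 for complex II, 0.17 for complex III, -0.15 for complex IV and -0.23 for ATP synthase.

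COX5B had signals of 64.7 and 23.9 in nab3-11 at 37 °C and 25 °C, against 138 and 19.0 in wild type. It was thus highest in wild type at 37 °C, 2.13-fold lower in nab3-11 at that temperature, and at or near the floor in both strains at 25 °C. With the floor added to each signal the strain difference at 37 °C was -0.88 on the log2 scale and not called. The 25 °C signal of wild type lay below the floor, so the strain-by-temperature difference of -1.22, which subtracts the temperature difference of wild type from that of nab3-11, is a bound. COX5A, which encodes the Cox5 form used in air, had 531 and 468 in nab3-11 at 37 °C and 25 °C, against 405 and 496 in wild type. It differed the other way at 37 °C, by 0.39 on the log2 scale, the highest of complex IV. The 2 forms replace each other in the enzyme, and their genes are regulated in opposite directions by oxygen and heme.

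In complex II, which oxidises succinate, all 4 genes had a higher signal in nab3-11 than in wild type at 37 °C, where 45.7% of all genes did. With quantile normalization SDH3 moved to the other side of 0 and 3 of 4 remained above it. SDH2, the iron-sulfur subunit gene, had 606 and 327 in nab3-11 at 37 °C and 25 °C, against 393 and 342 in wild type. Its signal in nab3-11 at 37 °C stood above the other 3 arrays, and it was 1.54-fold higher than in wild type. SDH3, a membrane anchor gene, had 301 and 184 in nab3-11, against 282 and 182 in wild type, and its log2 difference of 0.10 at 37 °C was the lowest of the complex. As scaled here, SDH3 thus separated by temperature in both strains and hardly by strain. Its temperature differences were 0.71 in nab3-11 and 0.63 in wild type on the log2 scale, and scaling to a common median lowers both.

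Complex III carries electrons from ubiquinol to cytochrome c. At 37 °C its 9 genes lay within a narrow band, from -0.18 for QCR8 to 0.28 for QCR9, both genes of small subunits around the redox centres. QCR9 had 640.2 and 402 in nab3-11 at 37 °C and 25 °C, against 526 and 391 in wild type. QCR8 had 493 and 364 in nab3-11, against 559.9 and 391 in wild type. Both were higher at 37 °C than at 25 °C in each strain as scaled here. The genes of the cytochrome c1 protein, CYT1, and of the large core protein COR1 were within 0.10 of 0 between the strains at 37 °C, with log2 differences of -0.02 and -0.09.

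Of the 9 complex IV genes, 6 had a lower signal in nab3-11 at 37 °C and 3 a higher one, with COX5B at the low end. Without COX5B the range was from -0.39 for COX6 to 0.39 for COX5A. COX6 had 362 and 407 in nab3-11 at 37 °C and 25 °C, against 474 and 389 in wild type. Its wild type 37 °C signal was the highest of the 4, and its lowest was in nab3-11 at 37 °C. COX4, COX7, COX9, COX12 and COX13, which encode further nuclear subunits, differed by between -0.32 (COX7) and 0.10 (COX9), and COX8 by 0.34.

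ATP synthase had the lowest median of the 4 complexes at 37 °C. Of its 11 genes, 9 had a lower signal in nab3-11 than in wild type, a count that was the same under all 4 ways of scaling, where 54.3% of all genes did so. The size was small: none passed 2-fold and 1 passed 1.5-fold. That gene was ATP20, which encodes a membrane subunit that helps ATP synthase form dimers. ATP20 had 64.0 and 96.4 in nab3-11 at 37 °C and 25 °C, against 98.5 and 83.3 in wild type. Its nab3-11 37 °C signal lay below the other 3, and it was 1.54-fold lower than in wild type. The other membrane subunit gene on the list, ATP17, had 148 and 151 in nab3-11, against 208 and 190.0 in wild type, and so was lower in nab3-11 at both temperatures.

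The genes of the peripheral stalk, which holds the catalytic head still against the turning rotor, were all 4 lower in nab3-11 at 37 °C, with a median log2 difference of -0.28. At 25 °C all 4 were higher in nab3-11, with a median of 0.29. Of all genes, 54.3% were lower in nab3-11 at 37 °C and 51.4% higher at 25 °C. ATP14, the subunit h gene, had 259 and 328 in nab3-11 at 37 °C and 25 °C, against 364 and 267 in wild type. A second ATP14 probe set gave 182 and 276 in nab3-11, against 341 and 299 in wild type, so the sets were on the same side at 37 °C and on opposite sides at 25 °C. ATP4, the subunit b gene, had 152 and 190.5 in nab3-11, against 205 and 169 in wild type. ATP5, whose protein joins the stalk to the head, had 224 and 325 in nab3-11, against 246 and 221 in wild type, so its highest signal was in nab3-11 at 25 °C. ATP7, the subunit d gene, had 147 and 110.3 in nab3-11, against 152 and 90.7 in wild type, and was higher at 37 °C in both strains as scaled here. With a common median its temperature difference was -0.11 in nab3-11 and 0.24 in wild type.

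The catalytic head and the rotor subunits attached to it were not uniform. The genes of the alpha and beta subunits of the head, ATP1 and ATP2, were lower in nab3-11 than in wild type at 37 °C by little, with log2 differences of -0.23 and -0.22. ATP16, which encodes the delta subunit of the rotor, differed by -0.38. ATP3 and ATP15, which encode the gamma and epsilon subunits of the same rotor, were on the other side, at 0.25 and 0.20. The rotor genes were thus split. ATP3 had 516 and 474 in nab3-11 at 37 °C and 25 °C, against 433 and 725 in wild type. It stood out through its high signal in wild type at 25 °C, at which nab3-11 was 1.53-fold lower.

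**Figure D2:**
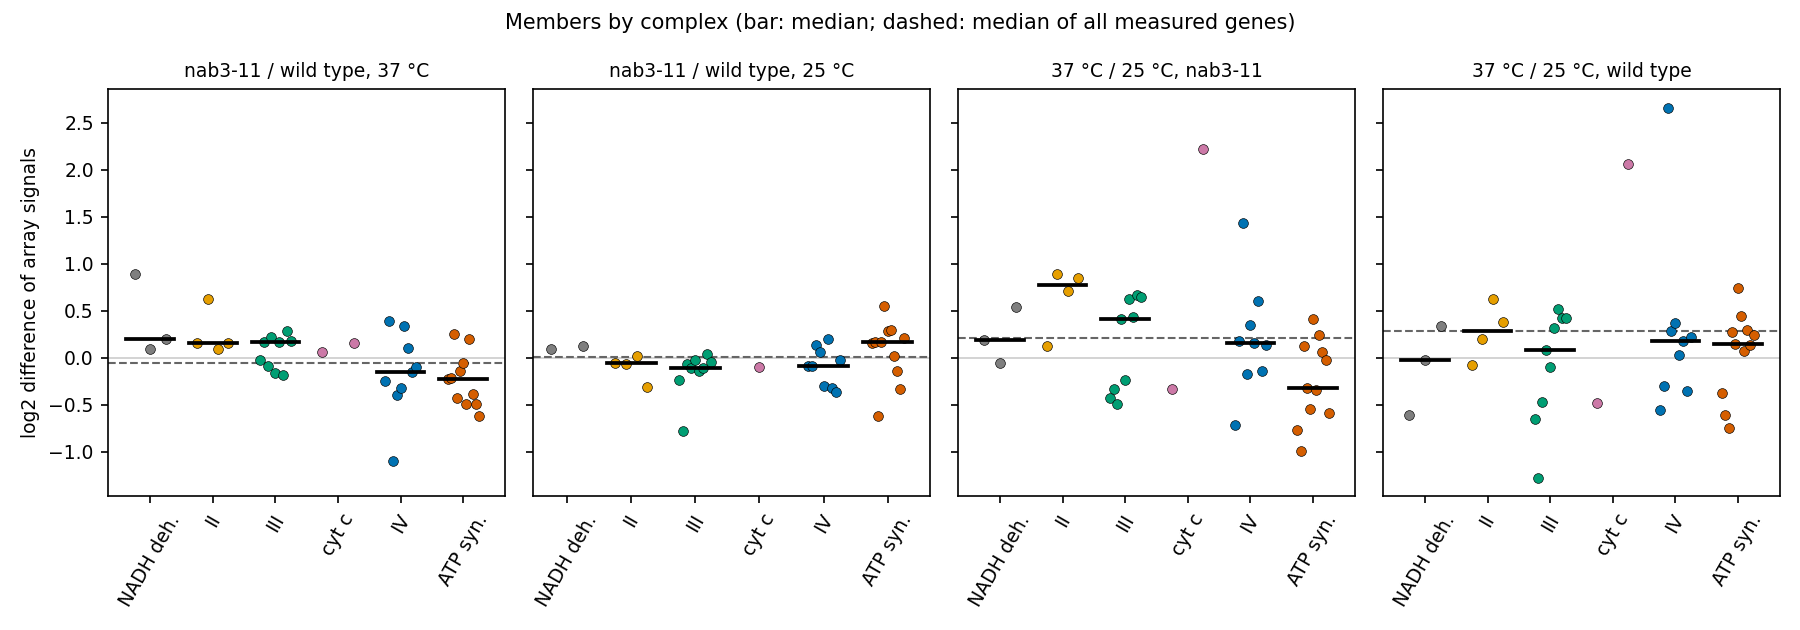
Log2 difference of array signals for each of the 38 genes measured in a comparison, by complex, in 4 comparisons: nab3-11 over wild type at each temperature, and 37 °C over 25 °C in each strain. Bars are medians and the dashed line is the median of all measured genes; ATP synthase lies at -0.23 between the strains at 37 °C and at 0.17 at 25 °C, and at -0.32 against complex II at 0.78 in the temperature comparison of nab3-11.

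At the permissive 25 °C the strains were closer still. None of the 36 measured genes passed 2-fold in either direction, where 1.17% of all 4282 measured genes were called higher and 0.537% lower. At 1.5-fold 0 were higher, against 6.05% of all genes. Their signs ran 15 above 0 and 21 below, and those of all genes 51.4% above and 48.6% below. NDE2 and CYC7 were below the floor in both strains. The median was -0.05, beside 0.01 for all genes. Of the complex III genes, 8 of 9 had a lower signal in nab3-11, with RIP1 the lowest at -0.77. Past 1.5-fold were RIP1 and ATP3, both lower in nab3-11, and 4.76% of all genes were that much lower.

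The strain-by-temperature difference uses all 4 arrays and asks whether the shift differed between the strains. Only COX5B passed 2-fold, in the lower direction, where 5.45% of 4811 genes were called lower and 4.47% higher. The median was -0.38 for ATP synthase, 0.34 for complex II, 0.23 for complex III, -0.02 for complex IV and -0.05 for all genes. Over the 4 ways of scaling the median ran from -0.41 to -0.38 for ATP synthase, from 0.33 to 0.38 for complex II and from 0.19 to 0.23 for complex III. Of the 38, 20 lay above 0 and 18 below, against 46.4% and 53.6% of all genes, and 9 of the 11 ATP synthase genes lay below. Past 1.5-fold in the lower direction were 4 of the 11 ATP synthase genes (ATP4, ATP5, ATP14 and ATP20), against 17.3% of all genes, and 3 of these 4 belong to the peripheral stalk. Past 1.5-fold in the higher direction were ATP3 at 0.87, RIP1 at 0.95, NDI1 at 0.79 and SDH2 at 0.69, against 13.3% of all genes. ATP20 and ATP14 were at -0.83 and -0.79. ATP18, ATP19 and TIM11, ATP synthase subunit genes outside the 38, ran the other way, with the larger rise to 37 °C in nab3-11. ATP18 had 818 and 532 in nab3-11 at 37 °C and 25 °C, against 818 and 628 in wild type. ATP19 had 195 and 119, against 252 and 216, and TIM11 had 778 and 564, against 856 and 711. The ATP synthase medians thus cover the 11 listed genes only.

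RIP1 had 562 and 706 in nab3-11 at 37 °C and 25 °C, against 498 and 1206 in wild type. As with ATP3, the array apart from the rest was wild type at 25 °C. NDI1, the internal NADH dehydrogenase gene and the counterpart of complex I, had 119.6 and 105 in nab3-11, against 64.6 and 98.4 in wild type. Here the array apart was wild type at 37 °C, and NDI1 was 1.85-fold higher in nab3-11 at that temperature, the highest of all 38 genes. For these 3 genes single arrays do not show whether the strain, the temperature or the array set the value.

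Between 37 °C and 25 °C the forms used at low oxygen separated from the main forms in both strains. CYC7 had 102 and 90.7 at 37 °C in nab3-11 and wild type, against 20.6 and 21.1 at 25 °C. It was at least 4.67-fold higher at 37 °C in nab3-11 and at least 4.17-fold higher in wild type. The gene of the main form of cytochrome c, CYC1, had 397 and 381 at 37 °C in nab3-11 and wild type, against 499 and 531 at 25 °C. The genes thus lay on opposite sides in each strain. COX5B was 2.71-fold higher at 37 °C in nab3-11 and at least 6.33-fold higher in wild type. In nab3-11 that difference fell short of 2-fold under 4 settings, at 0.92 with a common median, 0.94 with quantile normalization, 0.92 with the floor added and 0.56 with a floor at the 55th percentile. COX5A differed by 0.18 in nab3-11, which turned to -0.34 with a common median, and by -0.29 in wild type.

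NDE2, one of the genes of the external NADH dehydrogenases, had 31.8 and 27.6 at 37 °C in nab3-11 and wild type, against 2.20 and 2.30 at 25 °C. It lay just above the floor at 37 °C, which gives at least 1.46-fold in nab3-11 and at least 1.27-fold in wild type. NDE1, the gene of the other external enzyme, had 1477 and 1382 at 37 °C, against 1533 and 1404 at 25 °C, and differed by less than 0.10 on the log2 scale in either strain.

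**Figure D3:**
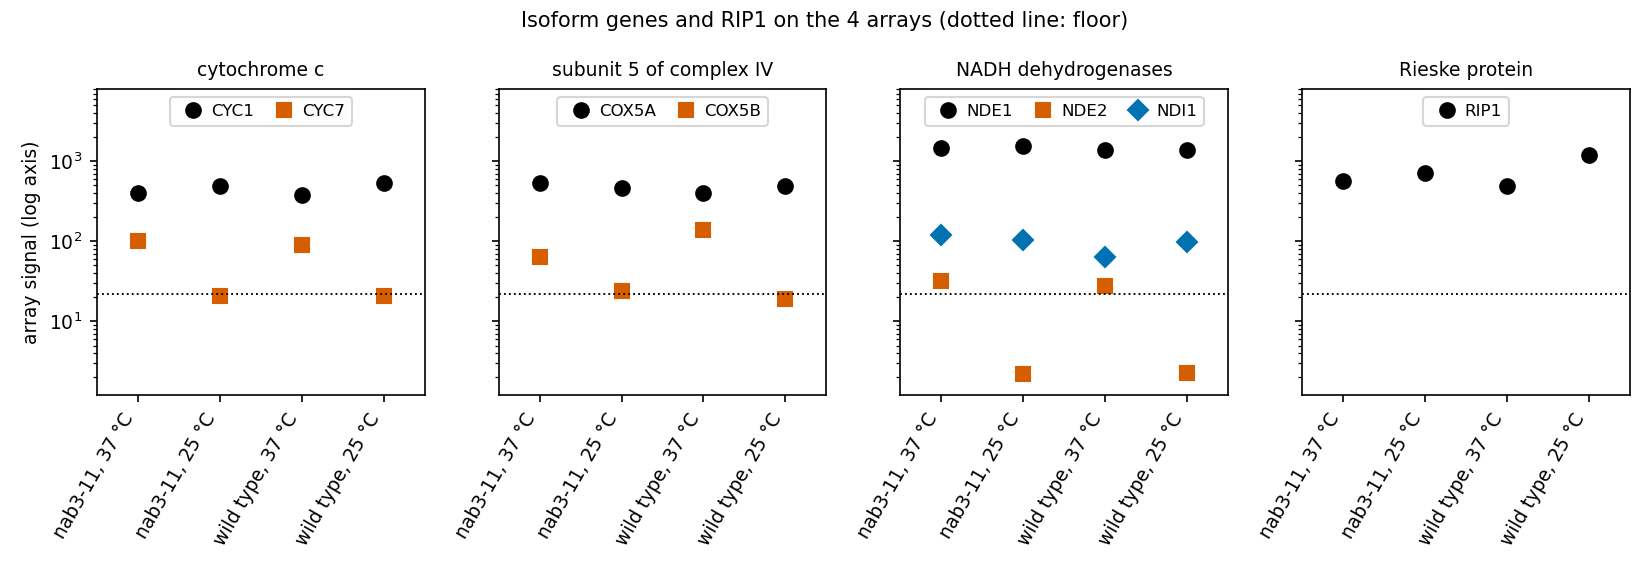
Signal of the cytochrome c genes, the Cox5 genes, the NADH dehydrogenase genes and RIP1 on the 4 arrays, on a log axis, with 1 point per array and the floor as a dotted line. CYC7, COX5B and NDE2 are higher at 37 °C in both strains, COX5B is at 64.7 in nab3-11 and 138 in wild type at 37 °C, and RIP1 is highest, at 1206, in wild type at 25 °C.

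In nab3-11, the complexes lay furthest apart between the temperatures. The 37 °C over 25 °C medians were 0.78 for complex II, 0.41 for complex III, 0.16 for complex IV and -0.32 for ATP synthase, beside 0.21 for all 4630 measured genes. The ATP synthase genes ATP18, ATP19 and TIM11, outside the 38, were higher at 37 °C in nab3-11 as scaled here. Of the 38 genes, CYC7 and COX5B were called higher and 0 lower, where 15.7% and 4.06% of all genes were. At 1.5-fold 9 were higher and 4 lower, against 30.8% and 12.3% of all genes. Of the 38, 22 lay above 0 and 16 below, against 62.3% and 37.7% of all genes. Scaling moved these counts. The median of all genes was -0.26 with a common median, and the split of called members was then 1 higher and 6 lower. Under quantile normalization all genes had a median of -0.08, and the split was 2 higher and 1 lower, the higher ones being CYC7 and SDH4 in place of COX5B. The shares of all genes given above belong to the main scaling, so they are no measure for these other splits. The distance from the median of all genes was steadier: it ran from 0.52 to 0.74 for complex II, from 0.15 to 0.37 for complex III, from -0.10 to 0.29 for complex IV and from -0.58 to -0.48 for ATP synthase over the 4 ways of scaling.

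SDH4, which encodes the other membrane anchor of complex II, had 936 and 839 at 37 °C in nab3-11 and wild type, against 520.4 and 645 at 25 °C. It was higher at 37 °C in both strains as scaled here, and with a common median it turned to -0.13 on the log2 scale in wild type. SDH1, the flavoprotein gene, had 344 and 314 in nab3-11 at 37 °C and 25 °C, against 308 and 325 in wild type, and was nearly level. The complex III genes lay on both sides of 0 in nab3-11: QCR2, QCR7, QCR8, QCR9 and QCR10 had log2 differences between 0.41 and 0.67, and CYT1, COR1, RIP1 and QCR6 between -0.49 and -0.23. In wild type the QCR genes other than QCR6 lay between 0.09 and 0.52, and the remaining 4 genes between -1.28 and -0.10. With a common median, which lowers each of these values, QCR2 and QCR8 in nab3-11 and QCR2, QCR7, QCR9 and QCR10 in wild type came to the other side of 0.

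ATP2 and ATP1 had the lowest and the second-lowest difference of the 38 in nab3-11. ATP2 had 433 at 37 °C, against 856 at 25 °C, in nab3-11, and 503, against 763, in wild type. ATP1 had 721, against 1225, in nab3-11, and 844, against 1093, in wild type. Both genes were thus lower at 37 °C in each strain, ATP2 by 1.98-fold in nab3-11 and 1.52-fold in wild type. COX4 was next, at -0.72 in nab3-11 and -0.55 in wild type.

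In wild type, CYC7 and COX5B were called higher and RIP1 lower, by 2.42-fold, where 11.1% of 4650 genes were called higher and 1.44% lower. At 1.5-fold 4 were higher and 5 lower, against 29.8% and 6.41% of all genes. Of the 38, 24 lay above 0 and 14 below, against 71.3% and 28.7% of all genes. The medians were 0.29 for complex II, 0.09 for complex III, 0.18 for complex IV and 0.15 for ATP synthase, beside 0.29 for all genes. With a common median the split was 2 higher and 6 lower and with quantile normalization 2 higher and 3 lower. Here too the shares of all genes given are those of the main scaling. The complexes lay between -0.23 and 0.26 from the median of all genes over the 4 ways of scaling, and with a common median all 4 medians were below 0.

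Set side by side, the temperature differences of the strains, which share no array, correlated across the 38 genes with a Pearson r of 0.75 and a Spearman rho of 0.64. Over 4811 genes the values were 0.63 and 0.58. Genes are not independent replicates, and CYC7 and COX5B lie far from the rest. Of the 38, 18 were higher at 37 °C in both strains, 10 were lower in both and 10 had opposite signs. Among all 4811 genes, 2349 were higher in both, 921 lower in both and 1199 had opposite signs, so the split of the 38 was similar. Of the 10 members with opposite signs, 6 were ATP synthase genes. ATP4, ATP5, ATP14, ATP17 and ATP20 were lower in nab3-11 and higher in wild type, and ATP3 the other way round. These signs depend on the scaling: with a common median 11 of 11 ATP synthase genes were lower at 37 °C in nab3-11 and 10 of 11 in wild type. Under that scaling the median of all genes also lay on the lower side in both strains.

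**Figure D4:**
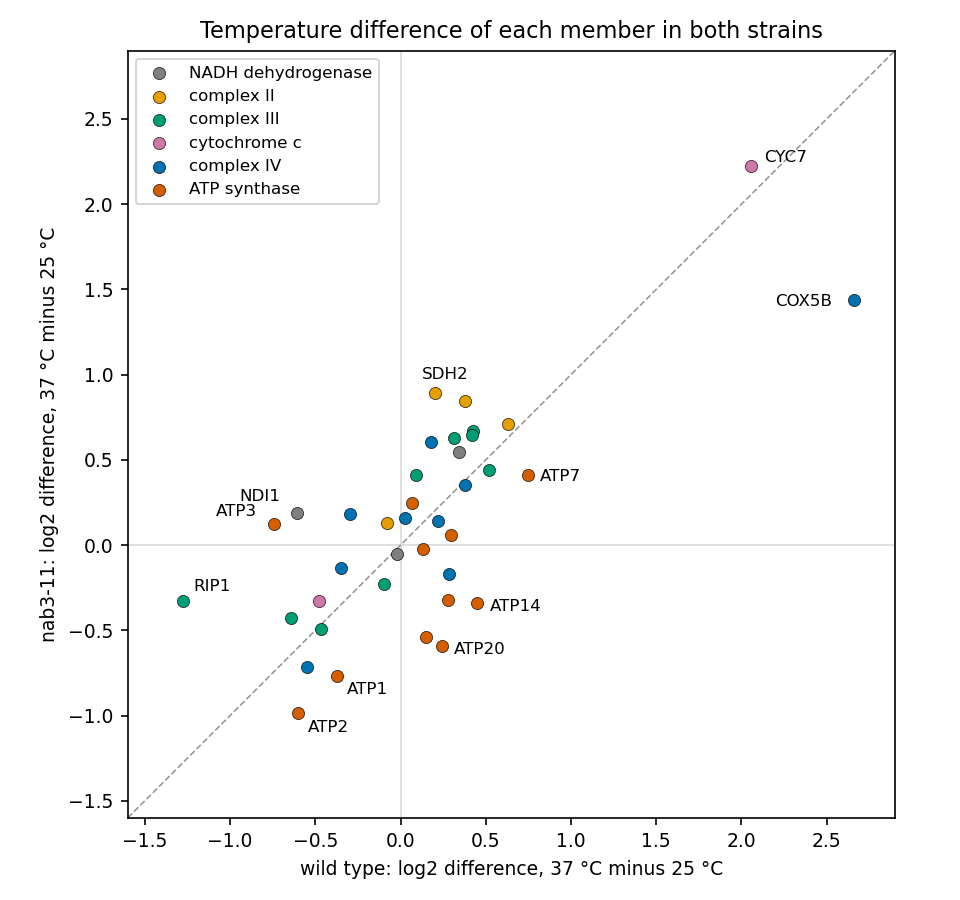
Log2 difference between 37 °C and 25 °C in nab3-11 (vertical axis) and in wild type (horizontal axis), with 1 point per gene coloured by complex and a dashed line of equal differences. CYC7 lies near the line at 2.22 and 2.06, COX5B below it at 1.44 and 2.66, and 9 of the 11 ATP synthase genes below it, with ATP15 and ATP3, the second at 0.12 and -0.74, above.

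Several genes that surround the complexes separated more by temperature than the subunits did. In the list of further nuclear subunits and paralogues, 8 of 12 genes were called higher at 37 °C in nab3-11 and 4 of 12 in wild type, with 0 lower in either. Of all genes, 15.7% were called higher in nab3-11 and 11.1% in wild type, and 4.06% and 1.44% lower. With other scalings the counts of list genes called higher were as few as 3 and 3, to which the shares just given do not apply. The list also holds subunit genes. Of these, ATP18, ATP19 and TIM11 were called in neither strain, and COX26 was called in nab3-11 only, with 94.3 at 37 °C, against 42.9 at 25 °C. SHH3, a paralogue of SDH3, had 389 and 5.19 in nab3-11 at 37 °C and 25 °C, against 87.4 and 2.00 in wild type. It was at least 17.9-fold higher at 37 °C in nab3-11, at least 4.01-fold higher in wild type, and 4.45-fold higher in nab3-11 than in wild type at 37 °C. SHH4, a paralogue of SDH4, was 2.27-fold higher in nab3-11 at 37 °C, with 77.6, against 34.2 in wild type. That call was lost with a floor at the 55th percentile, at 0.82 on the log2 scale, and with the floor added, at 0.83. SDH3 and SDH4 themselves differed between the strains at 37 °C by 0.10 and 0.16.

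STF1, STF2 and INH1 encode proteins that inhibit the reverse reaction of ATP synthase or stabilise the inhibited enzyme. STF1 was 3.28-fold higher at 37 °C in nab3-11 and 4.54-fold in wild type, and STF2 3.26-fold and 3.04-fold. INH1 was 2.02-fold higher in nab3-11 and 2.58-fold in wild type, and with a common median it was called in neither. RCF1, whose protein joins complexes III and IV into supercomplexes, had 176 and 77.3 in nab3-11 at 37 °C and 25 °C, against 105 and 123 in wild type. It was the 1 gene of this list besides SHH3 with a strain-by-temperature difference past 2-fold, at 1.42.

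Of the 61 genes for assembly of the complexes and expression of mitochondrial messages, 14 of 47 measured were called higher at 37 °C in nab3-11 and 9 of 49 in wild type, with 0 lower in either, against 15.7% and 11.1% of all genes called higher. With a common median these counts were 4 and 1, and the shares just given do not apply to them. The median of the assembly genes lay between 0.17 and 0.35 above that of all genes over the 4 ways of scaling and both strains. Complex II assembly had the highest median of the assembly lists, at 1.46 in nab3-11 and 0.95 in wild type. SDH6, needed to insert the iron-sulfur clusters of Sdh2, had 434 at 37 °C, against 80.7 at 25 °C, in nab3-11, and 268, against 59.3, in wild type. SDH7, with the same task, was 3.22-fold higher at 37 °C in nab3-11 and 1.74-fold in wild type. SDH8, a chaperone gene for Sdh1, was 2.36-fold and 2.12-fold higher.

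Elsewhere in assembly, CYC3, the heme lyase gene for cytochrome c, was 2.78-fold higher at 37 °C in nab3-11 and 2.51-fold in wild type. COX17, a copper carrier gene for complex IV, was 2.65-fold and 2.06-fold higher, and COA6 2.69-fold and 2.44-fold. NCA3, named for its effect on ATP6 and ATP8 messages, was 4.22-fold and 2.81-fold higher. With a common median CYC3, COX17, COA6 and SDH8 fell short of 2-fold in both strains, at between 0.54 and 0.95 on the log2 scale, and NCA3 did so in wild type, at 0.98. Between the strains at 37 °C, 1 of 49 assembly genes was called, PET117, which was 2.22-fold lower in nab3-11, where 3.94% of all genes were called lower and 4.78% higher. PET117 fell short of 2-fold with a floor at the 55th percentile, at -0.95, and with the floor added, at -0.83.

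Of the coenzyme Q genes, COQ4 was called higher at 37 °C in both strains, by 2.30-fold in nab3-11 and 2.28-fold in wild type, and fell short of 2-fold with a common median. COQ10, whose protein binds coenzyme Q, had 21.7 and 31.6 in nab3-11 at 37 °C and 25 °C, against 55.9 and 25.9 in wild type, and was at least 2.57-fold lower in nab3-11 at 37 °C. It was the 1 gene of 10 called between the strains at 37 °C, where 3.94% of all genes were called lower. The call was lost with a floor at the 55th percentile, at -0.35, and with the floor added, at -0.84.

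**Figure D5:**
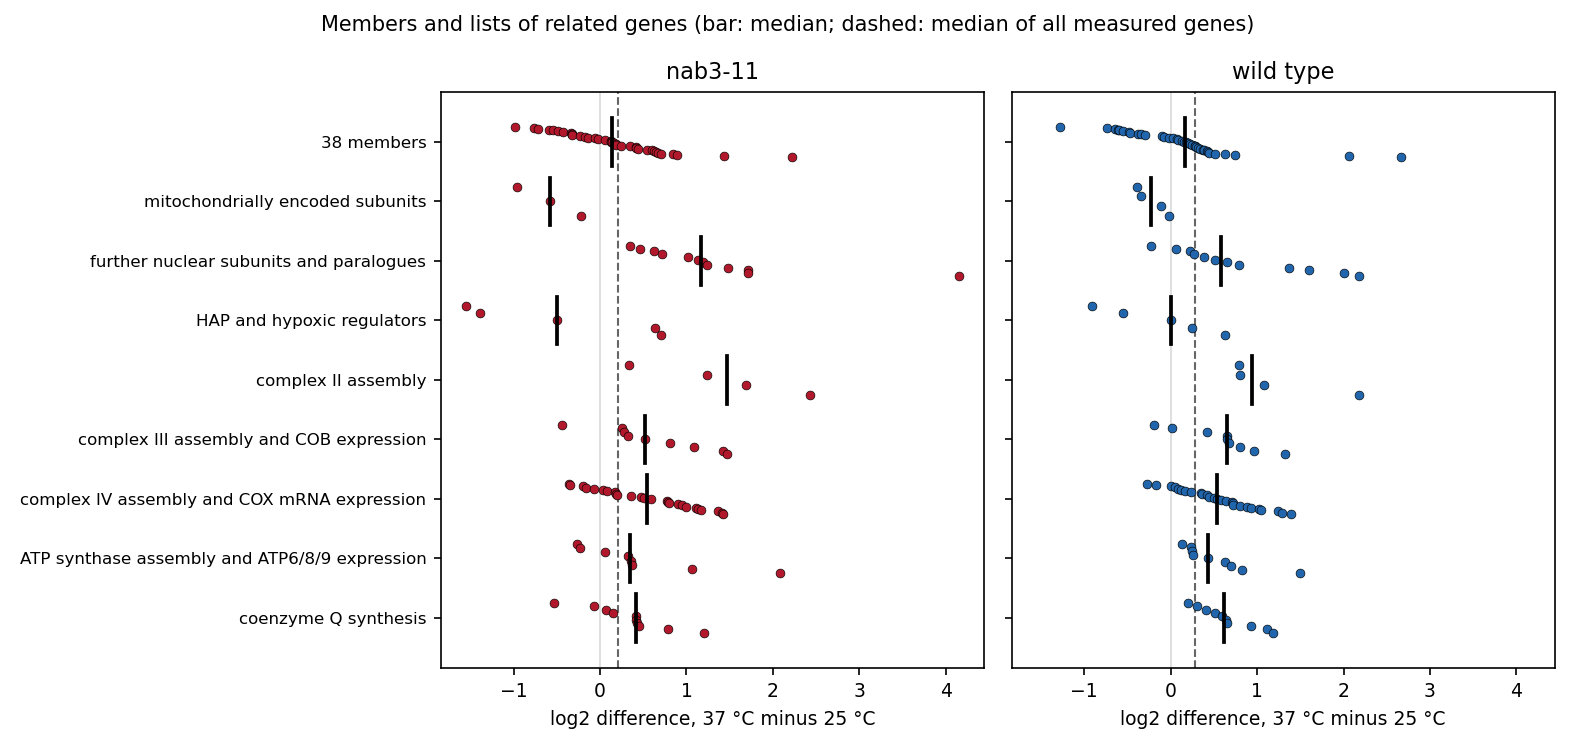
Log2 difference between 37 °C and 25 °C for the 38 genes and for 8 lists of related genes, in nab3-11 (left) and in wild type (right), with 1 point per measured gene, list medians as bars and the median of all measured genes as a dashed line. Complex II assembly lies at 1.46 and 0.95 and the 38 genes at 0.14 and 0.16.

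Among the regulators, HAP4, whose protein carries the activating part of the Hap complex and limits its activity, had 44.3 and 130.1 in nab3-11 at 37 °C and 25 °C, against 54.7 and 103 in wild type. It was 2.94-fold lower at 37 °C in nab3-11 and 1.88-fold in wild type, and lower at 37 °C under every setting tried. The difference between the strains at 37 °C was -0.31 on the log2 scale. HAP3 and HAP5, which encode DNA-binding subunits of the same complex, were not lower at 37 °C as scaled here. HAP3 had 40.1 and 24.5 in nab3-11, against 31.2 and 31.1 in wild type. HAP5 had 33.97 in nab3-11 and 33.6 in wild type at 37 °C, and was below the floor in both at 25 °C. ROX1, which represses genes of low oxygen, had 27.5 and 39.0 in nab3-11, against 30.7 and 44.9 in wild type, close to the floor on all 4 arrays. HAP1, a heme-dependent activator, gave different answers by probe set. Its brightest set, of a type that can bind a family of sequences, had 216 and 567 in nab3-11 at 37 °C and 25 °C, against 527 and 446 in wild type, a log2 difference of -1.29 between the strains at 37 °C. Its unique set had 59.95 and 45.4 in nab3-11, against 41.8 and 35.0 in wild type, a difference of 0.52. No direction is given for HAP1 for this reason. HAP2, MOT3 and UPC2 were below the floor on all arrays.

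Of the subunits encoded in mitochondrial DNA, COB, COX2 and ATP8 lay below the floor on all arrays, and COX3 above it on 1. Mitochondrial messages of this yeast lack poly(A) tails and the labelling started from an oligo(dT) primer, so how far these signals follow their levels was not tested. COX1, ATP6 and OLI1 were above the floor on every array, although the other probe sets of COX1 and OLI1 were below it. COX1 had 689 and 1028 in nab3-11 at 37 °C and 25 °C, against 896 and 910.1 in wild type. ATP6 had 366 and 716 in nab3-11, against 403 and 527 in wild type. OLI1 had 1972 and 2299 in nab3-11, against 1974 and 2131 in wild type. ATP6 was lower at 37 °C in both strains under every setting, with log2 differences of -0.97 in nab3-11 and -0.39 in wild type. COX1 in wild type and OLI1 in both strains lay close to 0, at -0.02 for COX1 and -0.22 and -0.11 for OLI1 in nab3-11 and wild type, and changed sign with quantile normalization.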

How the data were processed

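Total RNA from 4 cultures was measured on 4 arrays. Per the submitters' processing notes, the authors made probe-set signals with MAS5 in GCOS 1.1.1, and the deposited intensity values are linear, with a trimmed mean near 150 on each array, which hides changes in total RNA per cell. Here arrays were rescaled to a 2% trimmed mean of 150, and signals below 21.8, the 40th percentile of non-control probe sets, were set to that value, and log2 was then taken. Of 9335 probe sets, the platform annotation pairs 6504 with 1 gene and 328 with more, and all 6504 were found by gene ID in the R64 annotation. The brightest probe set was used per gene. Genes with no signal above the floor in a comparison were left out of it. With 1 array per group there was no test, and the calculation was checked on simulated data. The genes of all 8 related lists were named by the rule of at most 4 called genes per list and comparison, plus HAP4 and ROX1. ATP18, ATP19, TIM11 and COX26 were named besides, as further subunits, after their values were seen. The members and lists were chosen with earlier results of these data known. Of 98 list genes, SDH9, CAT5 (COQ7) and MTF2 (NAM1) carry current names. In all, 12 alternatives were run: values as deposited, a common median, quantile normalization, 3 other floors, 2 probe-set rules, 1.5-fold and 3-fold thresholds, and 2 narrower member sets. Python 3.11.15, numpy 2.4.6, pandas 2.3.3 and matplotlib 3.10.9 were used. Members were named when past 2-fold, as isoform genes, or as the highest or lowest of a complex between the strains at 37 °C; the 3 mitochondrially encoded genes above the floor and the genes quoted to describe stalk, head and assembly were chosen after their values were seen. Detection calls were not used here.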

Additional observations from a re-analysis of the deposited data

Results flagged for a closer look

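These genes had differences of opposite sign in 2 groups, of which at least 1 passed 2-fold. Each group is 1 array, so the differences between groups were not tested. COX5B was lower in nab3-11 than in wild type at 37 °C and 0.13 higher on the log2 scale at 25 °C, and its strain-by-temperature difference was -1.22. Both of these log2 values are bounds, because its signal in wild type at 25 °C lay below the floor. That in nab3-11 at 25 °C, 23.9, lay just above the floor, so the opposite sign rests on signals near it. RCF1 was higher at 37 °C than at 25 °C in nab3-11 and 0.23 lower on that scale in wild type, with a strain-by-temperature difference of 1.42. COQ10 was lower at 37 °C in nab3-11 and higher in wild type, with a strain-by-temperature difference of -1.65, a bound because its signal in nab3-11 at 37 °C lay below the floor. HAP1 was at -1.63 by a probe set that can bind several sequences and at 0.15 by its unique probe set.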

How the results depend on the processing

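Over the 4 ways of scaling, medians for nab3-11 at 37 °C against 25 °C changed sign for the 38 members (-0.38 to 0.14), complex III (-0.11 to 0.41) and complex IV (-0.36 to 0.21), and kept it for complex II and ATP synthase. The member counts in this section are given without the share of all genes called under the same setting. With a common median, 1 member was higher and 6 lower in nab3-11 at 37 °C against 25 °C, and 6 were lower in wild type. With quantile normalization 1 was lower in nab3-11 and 3 in wild type. With a floor at the 55th percentile 1 was higher in nab3-11. Between the strains at 37 °C, 0 were lower with the floor added and at 3-fold. The count was also 0 among members above the floor on all arrays and without NDE2, CYC7 and COX5B. That is by construction, since both sets leave out COX5B, the gene called lower. At 1.5-fold the counts were 2 higher and 2 lower between the strains at 37 °C, 9 and 4 for nab3-11 at 37 °C against 25 °C, 4 and 5 for wild type, 2 lower at 25 °C, and 4 and 5 by strain-by-temperature difference. At 3-fold, 1 was higher in nab3-11, 0 lower in wild type and 0 lower in the strain-by-temperature difference. Among members above the floor throughout, and without the 3 minor forms, 0 were higher in either strain at 37 °C and 0 lower in the strain-by-temperature difference, by construction. With unique probe sets HAP1 turned to 0.52 between the strains at 37 °C, 0.40 for nab3-11 at 37 °C against 25 °C and, by strain-by-temperature difference, 0.15; the cause was not tested. No paired analysis was possible because each group holds 1 array and the labels give no replicate numbers. Signals near the floor limit what can be said of NDE2, CYC7 and COX5B at 25 °C.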

Other observations

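In the gene order of the R64 annotation, the upstream neighbour of 37 of the 38 members was a protein-coding gene and that of 1, ATP1, a tRNA gene. On that side 0 lay next to an snoRNA or snRNA gene. The neighbour was taken on either strand and the share over all genes was not counted. These counts therefore do not set the members apart from other genes. The members are spread over 14 chromosomes. QCR8 had a second probe set that was below the floor on all 4 arrays, at 14.9 and 10.7 in nab3-11 at 37 °C and 25 °C, against 15.9 and 16.7 in wild type. Of the further assembly genes called higher at 37 °C in nab3-11, CYC2 was 2.68-fold higher, PET191 2.24-fold, ATP22 2.10-fold, COA2 at least 2.57-fold and FMP25 at least 2.13-fold. Each fell short of 2-fold with a floor at the 55th percentile. All were higher at 37 °C in wild type as well. There CYC2 had 42.6 at 37 °C and 27.2 at 25 °C, PET191 65.7 and 34.5, and ATP22 66.3 and 43.0. COA2 had 58.8 and 22.4 in wild type, a called log2 difference of 1.40, and FMP25 had 42.5 and 3.10.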
